A study of Mus musculus with 36 samples.

Results

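The miRNA genes of the mouse families Mir466, Mir467, Mir669 and Mir297 were set against the peaks of a PAX6 ChIP-seq assay in enteric precursor cells (EPCs). Members were the genes of type miRNA in GENCODE M1, the annotation of the mm9 genome, whose symbol starts with Mir466, Mir467, Mir669 or Mir297. This gave 79 of 1577 annotated miRNA genes, with 25 genes of the Mir466 family, 15 of Mir467, 30 of Mir669 and 8 of Mir297. The remaining member, Mir4660, entered by the spelling of its symbol alone. The families were selected on the positions of peaks in these lists, those near Mir466f-4, so counts of peaks near them are a description and carry no p-value.

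EPCs came from the ganglionic bowel of 7-day-old (P7) CD-1 mice and were cultured as neurosphere-like bodies (NLBs), clumps of cells that include enteric nervous system progenitors. Chromatin was precipitated with 3 µg of an anti-PAX6 antibody, 16 libraries in 3 pools (4 in pool 1, 6 in pool 2 and 6 in pool 3), or with mouse IgG as the negative control, 4 libraries that all carry the label of pool 1. Each pool also had as many input libraries, 16 in all, kept before precipitation. The libraries of a pool were merged before peaks were called, so each of the 4 lists is a single measurement and the 3 pools are the only replicates, with nothing in the labels on which animals or cultures they share. The lists held 491 peaks for PAX6 pool 1, 1032 for pool 2 and 724 for pool 3, against 1007 for IgG, and the files hold no read counts, so the depth behind each peak is unknown. No RNA was measured in these samples, so the markers of EPCs and the levels of the miRNAs could not be checked.

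MicroRNAs are short RNAs cut from hairpin transcripts by Drosha and Dicer1, and bases 2 to 8 of the mature form, the seed, pair with target mRNAs. These families expanded in rodents from simple repeats, and most of their copies lie in an intron of Sfmbt2, an imprinted Polycomb gene that is needed in the mouse placenta. PAX6 is a paired-box and homeobox transcription factor of the developing eye, brain and pancreas. Repeats of alternating C and A, read as T and G on the other strand, are common throughout the mouse genome, and the mature forms of these families are close to fragments of them.

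The mature sequences at hand are shown for their likeness to CA and TG repeats, which also occur in many peaks of the PAX6 and IgG lists. A RefSeq table on GRCm38.p6 held 8 of the 79 members, 7 of them with a mature form of that name, printed 5′ to 3′ with the seed in capitals:
mmu-miR-466i-3p: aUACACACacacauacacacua
mmu-miR-466j: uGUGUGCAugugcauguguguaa
mmu-miR-466k: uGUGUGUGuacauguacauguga
mmu-miR-467f: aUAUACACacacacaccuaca
mmu-miR-467g: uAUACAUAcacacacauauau
mmu-miR-467h: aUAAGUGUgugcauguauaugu
mmu-miR-669n: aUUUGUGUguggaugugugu
The 7 seeds all differed, and no other mouse miRNA of the table had any of them but that of miR-467h, which mmu-miR-668-5p shares. Most members are absent from the table, so whether they share these seeds could not be seen. In the 7 mature sequences, between 50% and 77.3% of neighbouring base pairs were CA, AC, TG or GT, with a median of 68.4%. Over the 1731 other mouse miRNAs the median was 28.6%, and 42 of them reached the lowest member.

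The 79 genes formed 12 loci when genes at gaps of 100 kb or less were joined. The Sfmbt2 cluster took 68 of them in 51.3 kb of the plus strand (chr2:10388571-10439906), inside a single intron of 62.5 kb, with no hairpin over an exon and a median gap of 210 bp between neighbours. It held 21 Mir466, 12 Mir467, 29 Mir669 and 5 Mir297 genes and Mir4660. The other 11 members stood alone on 8 chromosomes, 6 of them in introns. Mir466k lay in an intron of Arfip1, Mir669n of the zinc transporter gene Slc30a7 and Mir467g of the kinase gene Grk4. Mir297-2 lay in an intron of Sobp, Mir467f of Fxr2, a relative of the fragile X gene, and Mir466i of the kinase gene Cdk13. All 6 were on the strand opposite to the host gene. Mir297a-6, Mir297-1, Mir467h, Mir466j and Mir466f-4 lay between genes.

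PAX6 peaks with their centre within 100 kb were found at 2 of the 12 loci, Mir466f-4 and Mir467h. IgG peaks were found at 2 loci too, Mir466f-4 and Mir466j. Both shares were 16.7%, with a Wilson 95% interval from 4.7% to 44.8% that covers counting error only. Among the 1133 loci of all other miRNA genes, 16.7% had a PAX6 peak and 6.88% an IgG peak. By pool, the member loci with a peak were 0 of 12 in pool 1, against 2.56% of other loci, 1 of 12 (8.33%) in pool 2, against 9.36%, and 2 of 12 (16.7%) in pool 3, against 5.83%. Each of these backgrounds lies inside the interval of the members. Gene by gene, 2 of 79 members (2.53%) had a PAX6 peak within reach, against 14.6% of the 1497 other miRNA genes, and 2 of 79 (2.53%) had an IgG peak, against 5.61%. The gene counts are set by the Sfmbt2 cluster, whose 68 genes have no peak within reach.

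**Figure D1:**
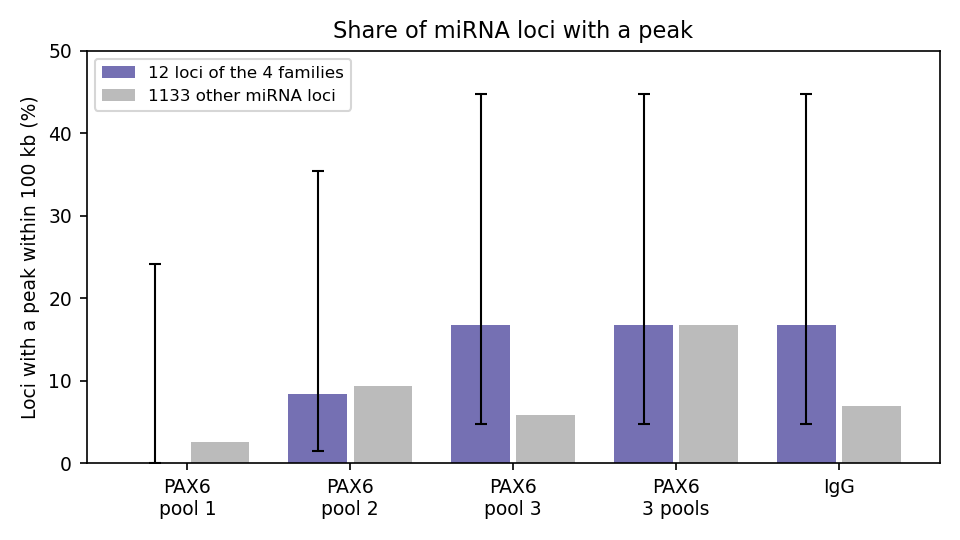
Share of loci with a peak centre within 100 kb, in percent, for the 12 loci of the families (coloured bars, with Wilson 95% intervals) and the 1133 other miRNA loci (grey bars), by list. With all pools joined, the families and the other loci both stood at 16.7% for PAX6, and the families at 16.7% against 6.88% for IgG.

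In numbers of peaks, 3 of 2219 PAX6 peaks on chromosomes 1 to 19 and X lay within 100 kb of a member, with an exact Poisson 95% interval from 0.619 to 8.77. The sequence within reach spans 2452 kb, or 0.0929% of these chromosomes, and 2.26 peaks were expected had each fallen anywhere on its own chromosome with equal probability. The ratio of observed to expected was 1.33, from 0.274 to 3.88. IgG gave 2 of 1006 peaks, from 0.242 to 7.22, against 1.02 expected, a ratio of 1.97 from 0.238 to 7.1. Per 1000 peaks this was 1.35 for PAX6 and 1.99 for IgG, and the interval of the PAX6 ratio lay inside that of IgG. The pools gave 0 of 489 peaks (0.496 expected) in pool 1, 1 of 1018 (1.02 expected, ratio 0.982) in pool 2 and 2 of 712 (0.744 expected, ratio 2.69) in pool 3, with a mean ratio of 1.22 ± 1.36 (SD, n = 3 pools). The spread between pools was thus larger than the distance of the mean from 1. The peaks of pools 2 and 3 near Mir466f-4 overlap each other. Counted once, they brought the PAX6 ratio to 0.886, a count chosen after seeing the data.

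Peaks just inside and just outside the limit were few. The farthest inside was the IgG peak 68.2 kb from Mir466f-4 (score 71.77). Between 100 and 200 kb lay 1 peak of each list. Pool 1 had one 124 kb from Mir466i (score 57.11), pool 2 one 180 kb from Mir466f-4 (score 59.2), pool 3 one 185 kb from Mir467h (score 106.97) and IgG one 193 kb from Mir669h, the member of the Sfmbt2 cluster nearest to it (score 115.5). Scores are those given by the peak caller MACS. They are read here as its p-value on the logarithmic scale that the paper gives for its PAX6 target peaks. Scores were compared only within a list, except in an alternative that set the same score limit for all lists.

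At the Sfmbt2 cluster the closest peak of each list was 0.496 Mb off for pool 1, 0.348 Mb for pool 2 and 0.669 Mb for pool 3, against 0.193 Mb for IgG. The largest group of these genes thus had no peak within reach in any list, and the list with the closest one was IgG. At the 12 loci the median distance to the closest PAX6 peak of any pool was 369 kb, from 0.152 to 3587 kb, against a median of 406 kb at the 1133 other miRNA loci. For the closest IgG peak it was 652 kb, from 30.1 to 5623 kb, against 1031 kb at the other loci. By pool, the medians of member loci and other loci were 1514 and 1966 kb (pool 1), 1099 and 860 kb (pool 2) and 1954 and 1292 kb (pool 3). By their medians, member loci were closer to peaks than the other loci in pool 1 and IgG, and farther in pools 2 and 3.

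**Figure D2:**
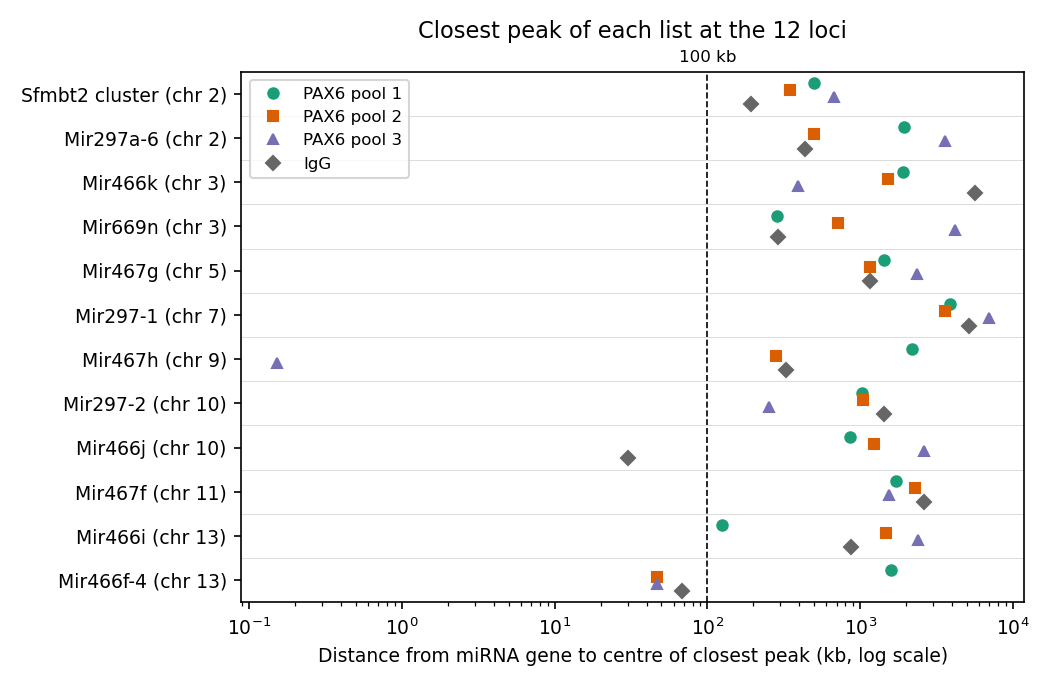
Distance from each of the 12 loci to the centre of the closest peak, in kb on a log axis, for PAX6 pools 1 to 3 and IgG, with a dashed line at 100 kb. Left of the line lie pools 2 and 3 and IgG at Mir466f-4, pool 3 at Mir467h (0.152 kb) and IgG at Mir466j (30.1 kb).

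Of the members with no peak within reach, Mir466i came nearest to one. Its closest pool 1 peak was 124 kb away, its closest pool 2 peak 1480 kb and its closest pool 3 peak 2404 kb, against 867 kb for IgG. Mir297-2 was 253 kb from a pool 3 peak, and 1035 kb or more from peaks of the other lists. Mir669n lay 287 kb from a pool 1 peak, 720 kb from a pool 2 peak and 4171 kb from a pool 3 peak, against 288 kb from an IgG peak. No pool had a peak much closer to it than the control. Mir466k was 389 kb from a pool 3 peak, against 5623 kb from the closest IgG peak, and Mir297a-6 was 498 kb from a pool 2 peak, against 438 kb in IgG. Mir467g was 1160 kb from a pool 2 peak, against 1158 kb in IgG, and Mir467f was 1550 kb from a pool 3 peak, against 2631 kb in IgG. The most distant locus was Mir297-1, with 3587 kb to a pool 2 peak, against 5158 kb in IgG.

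Mir466f-4 (chr13:71245967-71246087, plus strand) was the only member locus with peaks of more than one PAX6 pool. It lay between genes, 224 kb downstream of the closest coding start, that of 8030423J24Rik. The pool 2 peak (351 bp) was centred 46.9 kb downstream of the hairpin with a score of 68.98, rank 458 of 1032. The pool 3 peak (358 bp) was centred 47 kb downstream with a score of 175.6, rank 82 of 724. The pool 2 score equals the median of its list, 68.98. Other pool 2 peaks share it, and 458 is the best of the tied ranks. Pool 3 placed its peak among the higher ones, above 88.8%. The closest pool 1 peak was 1587 kb away. The 2 peaks shared 270 bp, 76.9% of the pool 2 peak and 75.4% of the pool 3 peak, where 17 of 1032 pool 2 peaks (1.65%) overlapped any pool 3 peak. That overlap was known when the families were selected. An IgG peak (chr13:71177494-71178041, 548 bp) lay on the other side of the hairpin, 68.2 kb upstream and 115 kb from the shared PAX6 stretch, with a score of 71.77, rank 281 of 1007. It overlapped no PAX6 peak.

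**Figure D3:**
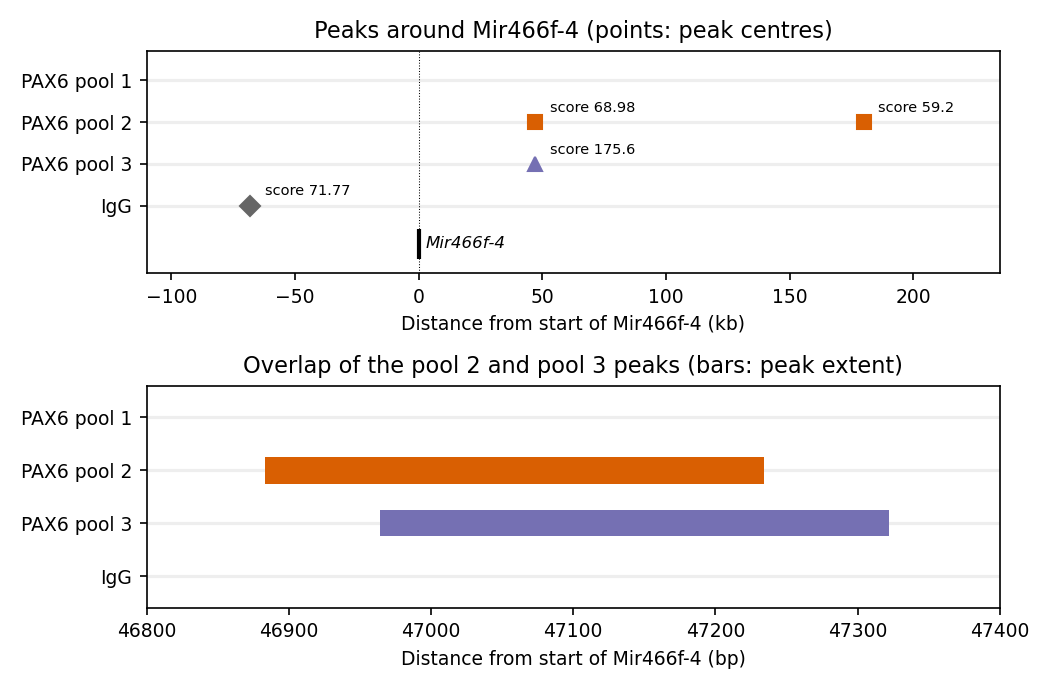
Peaks around Mir466f-4. The upper panel plots peak centres of each list in kb from the start of the gene, with their scores, and the lower panel the extent in bp of the overlapping peaks of pools 2 and 3, which share 270 bp.

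Near Mir466f-4 both PAX6 peaks were rich in CA and TG pairs, and each held 1 uninterrupted run of 20 bp or more. In the pool 2 peak 70% of neighbouring base pairs were CA, AC, TG or GT, above 98.8% of its list, and in the pool 3 peak 68.1%, above 77.8% of its list. The IgG peak upstream of Mir466f-4 had 42%, above 38% of its list, and its longest run was 17 bp. The 120 bases around that run are shown with the run in capitals, as the control sequence closest to this gene (mm9, plus strand, chr13:71177494-71177613):
Mir466f-4, IgG peak: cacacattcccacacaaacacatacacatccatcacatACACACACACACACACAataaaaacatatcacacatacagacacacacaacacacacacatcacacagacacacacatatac
Here C and A alternate on the plus strand in short stretches. No run in this IgG peak reached 20 bp, against a longest run of 35 bp in each of the PAX6 peaks.

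Mir467h (chr9:115290937-115291057, plus strand) was the only member with bases under a peak. The pool 3 peak (chr9:115291040-115291378, 339 bp) was centred 152 bp downstream of the hairpin, covered its last 18 bases and had a score of 138.11, rank 158 of 724, above 78.3% of its list. The closest pool 1 peak was 2190 kb away and the closest pool 2 peak 282 kb, against 329 kb for IgG. The region thus had a peak in 1 of the 3 pools. Among the 1497 other miRNA genes, 2 (0.134%) had bases under a PAX6 peak and 0 (0%) under an IgG peak. Those 2, AC161265.1 and AC161265.2, lie under this same peak.

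The 3 hairpins form an array on the plus strand. AC161265.1 (chr9:115291078-115291196) is 90.9% identical to Mir467h and lies under the peak with all of its 119 bases, and AC161265.2 (chr9:115291217-115291339) is 87.2% identical with all of its 123 bases under it. Across the peak, bases 139 bp apart were equal at 161 of 200 positions (80.5%). Reads from such copies can be placed at more than one of them. Of the stretches of 50 bases in the peak, 20.7% occurred once in mm9, lower than in all but 26 of the 712 pool 3 peaks (3.65%), whose median was 88.9%. Near Mir466f-4 it was 84.4% for the pool 2 peak and 86.1% for the pool 3 peak, and both IgG peaks near members were at 100%. How far the placement of reads bears on the Mir467h peak was not tested.

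The Mir467h hairpin is shown because its mature sequence, in capitals, returns in the peak (RNA, mm9, plus strand, chr9:115290937-115291057):
Mir467h hairpin: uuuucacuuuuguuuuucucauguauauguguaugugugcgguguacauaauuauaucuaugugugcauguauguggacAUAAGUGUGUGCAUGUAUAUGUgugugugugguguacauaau
The mature sequence occurred 4 times without a mismatch and once with 1 mismatch, starting 79, 147, 218, 286 and 357 bp after the start of the hairpin. The first lies in the hairpin and outside the peak, and the other 4 lie inside it. The first 300 bases of the peak are shown with the 3 exact copies in capitals (mm9, plus strand, chr9:115291040-115291339):
Mir467h, pool 3 peak: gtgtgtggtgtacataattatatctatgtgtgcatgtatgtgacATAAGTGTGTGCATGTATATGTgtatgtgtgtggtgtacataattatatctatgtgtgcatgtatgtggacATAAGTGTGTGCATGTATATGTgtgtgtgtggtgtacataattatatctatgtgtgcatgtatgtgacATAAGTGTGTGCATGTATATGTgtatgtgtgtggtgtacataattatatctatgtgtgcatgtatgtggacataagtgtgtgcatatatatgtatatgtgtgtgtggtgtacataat
Its TG stretches are short. The longest run was 12 bp, against 35 bp in the peaks near Mir466f-4, and 53.3% of neighbouring base pairs were CA, AC, TG or GT, above 42.8% of the pool 3 list.

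**Figure D4:**
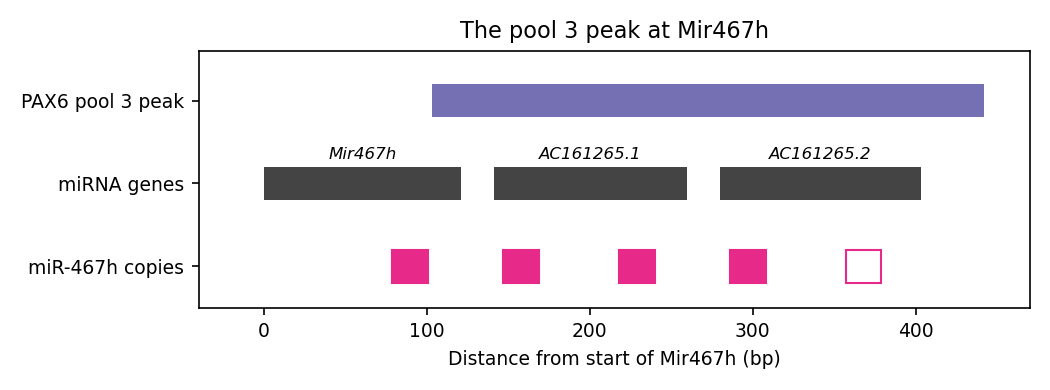
The pool 3 peak at Mir467h against the 3 miRNA genes and the copies of the mature sequence (filled, exact; open, 1 mismatch), in bp from the start of Mir467h. The peak covers the last 18 bases of Mir467h, the whole of the neighbouring AC161265.1 and AC161265.2 and 4 of the 5 copies.

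Mir466j (chr10:60423471-60423592, plus strand) had a peak within reach in IgG alone. This IgG peak (chr10:60392898-60393814, 917 bp) was centred 30.1 kb upstream, in an intron of Pldi, with a score of 113.45, rank 18 of 1007, above 98.3% of its list. The closest PAX6 peak, of pool 1, was 855 kb away, with pool 2 at 1224 kb and pool 3 at 2618 kb. It had the highest place in its list of the 5 peaks near members, 53.5% of CA, AC, TG or GT pairs (above 70.9% of the IgG list) and a longest run of 15 bp. The 120 bases around that run, in capitals, show the same kind of sequence under a control peak (mm9, plus strand, chr10:60393362-60393481):
Mir466j, IgG peak: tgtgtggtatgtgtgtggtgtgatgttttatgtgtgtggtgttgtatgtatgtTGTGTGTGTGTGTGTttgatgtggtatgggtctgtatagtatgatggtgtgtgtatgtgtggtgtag
It alternates T and G with frequent interruptions.

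The features were then set beside all other peaks. The median share of CA, AC, TG or GT pairs in the other peaks was 34.6% in pool 1, 37.5% in pool 2 and 56.5% in pool 3, against 46.7% in IgG. With the pools joined it was 41.1%. Pool 3 was thus the list richest in such pairs. It held 2 of the 3 PAX6 peaks near members, 1 above its median (Mir466f-4, 68.1%) and 1 below it (Mir467h, 53.3%). A link between the richness of the list and these peaks was not tested. A CA or TG run of at least 20 bp was in 2 of 3 PAX6 peaks near members (66.7%) and in 55.1% of the 2216 other PAX6 peaks. The 2 are the overlapping peaks at Mir466f-4, so the run is the same one, and counted once it was in 1 of 2, a count chosen after seeing the data. It was in 0 of 2 IgG peaks near members and in 62.7% of the 1004 other IgG peaks. Of 5116 windows of 400 bp, taken every 500 kb along the genome, 3.83% had one. Motif 1 of the study (30 bp, up to 6 mismatches) was in all 3 PAX6 peaks near members and both IgG peaks, in 74.1% of other PAX6 peaks, 87.8% of other IgG peaks and 6.63% of windows. Motif 2 (14 bp, up to 2 mismatches) was likewise in all 5, in 75.7% of other PAX6 peaks, 89.4% of other IgG peaks and 9.27% of windows. Both motifs were searched on both strands, and both overlap a CA or TG repeat, so a match can be the repeat itself. The paper derived them from the binding regions of its PAX6 target genes in these same pools. Matches in PAX6 peaks are thus not independent of the motifs. Near Mir466f-4 both PAX6 peaks matched both motifs with 0 mismatches, and at Mir467h motif 1 matched with 5 and motif 2 with 0. The IgG peaks matched motif 1 with 4 mismatches each, and motif 2 with 1 near Mir466j and 0 near Mir466f-4. Away from the members, the run and both motifs were more common in IgG peaks than in PAX6 peaks with the pools joined.

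**Figure D5:**
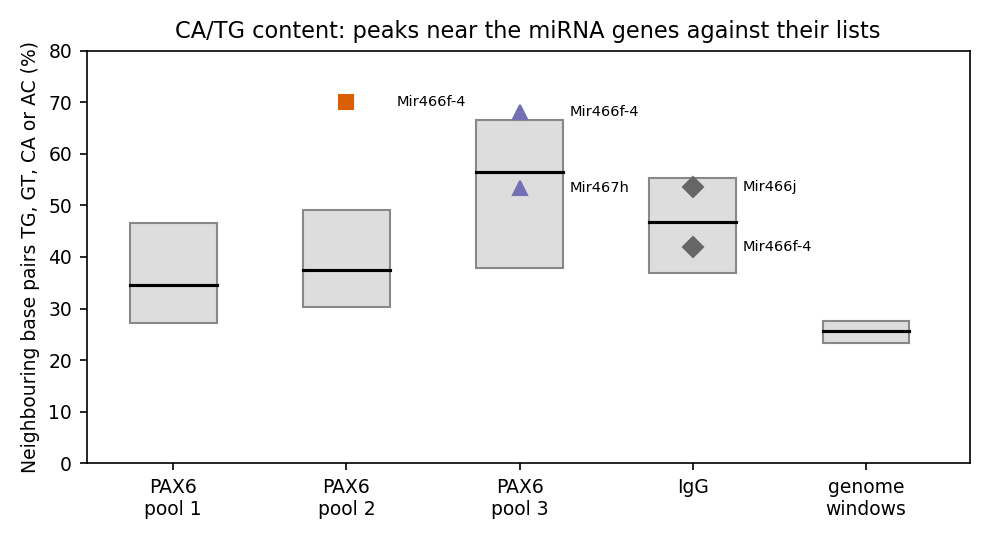
Share of neighbouring base pairs that are TG, GT, CA or AC, in percent. Boxes give the quartiles and lines the medians of the other peaks of each list and of 5116 genome windows (median 25.6%), and points the 5 peaks near members. The Mir466f-4 peaks of pools 2 and 3 lie above their boxes, and the other 3 points lie inside theirs.

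Copies of the mature sequences were also counted in the peaks, whatever their distance to a member. With up to 2 mismatches, a copy of miR-669n was in 10.3% of PAX6 peaks and 10% of IgG peaks, against 0.195% of windows. For miR-466i-3p it was 9.91% of PAX6 peaks and 8.75% of IgG peaks, against 0.274% of windows. For miR-467f it was 8.34% of PAX6 peaks and 9.44% of IgG peaks, against 0.156% of windows. The remaining 4 were rarer, with miR-467g in 2.88% of PAX6 and 4.77% of IgG peaks, miR-466j in 0.361% of PAX6 and 0.994% of IgG peaks, miR-467h in 0.18% of PAX6 and 0.398% of IgG peaks, and miR-466k in 0% of PAX6 and 0.298% of IgG peaks. The joined pools differed from each other. For miR-669n the share was 5.73% in pool 1, 8.55% in pool 2 and 15.9% in pool 3. For miR-466i-3p it was 7.77% in pool 1, 7.17% in pool 2 and 15.3% in pool 3, and for miR-467f 6.34% in pool 1, 5.21% in pool 2 and 14.2% in pool 3. For these 3 sequences pools 1 and 2 lay below IgG and pool 3 above it. The 4 rarer ones had a lower share in the joined PAX6 peaks than in IgG peaks. Over all mature sequences of the table, 6 of 7 members had a copy in some PAX6 peak and 7 of 7 in some IgG peak, against 20 of 1731 other miRNAs (1.16%) for PAX6 and 17 (0.982%) for IgG.

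Other gene sets were counted in the same way, for comparison with the families. Of 10 genes of miRNA processing, 2 had a PAX6 peak within 100 kb, against 17.5% of the 22340 other protein-coding genes. They were Tarbp2 in pool 1 and Prkra in pool 3, both genes of protein partners of Dicer1. IgG peaks lay near 2 others, against 8.63% of protein-coding genes. These were Dicer1, which cuts off the hairpin loop, and Drosha, which releases the hairpin. In the Dlk1-Dio3 cluster, another imprinted cluster of miRNAs, 1 of 57 genes had a PAX6 peak (Mir1247, pool 2) and 0 an IgG peak. Among all miRNA genes outside the families the shares were 14.6% and 5.61%. The genes of this cluster were counted one by one and not as a single locus, so neighbours are not independent. A list of 17 miRNA genes was picked as neural or neural crest by the start of the symbol alone, which does not show that each gene is neural. Of these, 7 had a PAX6 peak, against 14.6% of all miRNA genes outside the families, and 0 an IgG peak, against 5.61%. Pool 1 had a peak near 0 of the 17, and no gene had peaks of more than 1 pool. Those with a pool 2 peak were Mir124a-3, Mir125a, Mir125b-2, Mir200c and Mir1247. Mir1247 matched the list by the spelling of its symbol only and is the same gene as counted in the Dlk1-Dio3 cluster. Those with a pool 3 peak were Mir218-1 and Mir9-2. This list too was drawn up with results of these data known, and its difference from the families was not tested.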

How the data were processed

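PAX6 ChIP-seq was made in EPCs from P7 CD-1 mice. The authors merged the libraries of each pool, mapped reads to mm9 (Bowtie) and ran MACS to find peaks. Versions of both are not given in the sources used here. Each deposited list holds peak positions and a score per peak, which the authors' caller produced and which was ranked only within its list. Tied scores took the best of their ranks, and shares of a list below a peak's score count ties as below. Reads and inputs were not analysed here, the sequence under the PAX6 peaks near Mir466f-4 is not reported here, and 0 columns were left unassigned.

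Distances run from the peak centre to the closest base of a GENCODE M1 gene. Expected counts take the length within 100 kb of members on each chromosome over its whole length. Overlap means at least 1 bp. Intervals are exact Poisson or Wilson at 95% and cover counting error only. Stretches of 50 bases were counted on both strands of mm9. Scripts ran under Python 3.11.15 with pysam 0.24.0, scipy 1.17.1, numpy 2.4.6 and matplotlib 3.10.9 and were checked on simulated data.

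The members, lists and alternatives were chosen with earlier results of these data known. The text names Mir466f-4, the Sfmbt2 cluster, every locus with a peak within 100 kb, and the members just inside and outside that limit. The other loci are named for completeness, after their values were seen. Alternatives changed the distance, the score limit, the families, the chromosome length, the grouping of genes, the removal of PAX6 peaks over IgG peaks and the pools.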

Additional observations from a re-analysis of the deposited data

How the results depend on the processing

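No paired analysis was possible because each pool has 1 merged list and no values per library, and the IgG libraries carry the label of pool 1 only. The PAX6 ratio of observed to expected peaks (1.33) was 3.74 within 10 kb, from the Mir467h peak alone against 0.267 expected. The IgG ratio (1.97) was 0 there, with only 0.118 peaks expected, so these counts cannot set PAX6 apart from IgG. The share of loci within 10 kb was 8.33% for PAX6 and 0% for IgG, and no share of other miRNA loci is given at this distance. Both IgG peaks, and the PAX6 peaks other than that at Mir467h, lie near Mir466 genes. Without that family the IgG ratio was therefore 0 (0.652 expected) and the PAX6 ratio 0.692 (1 peak, 1.45 expected). Taking every gene by itself, the shares were 2.53% for PAX6 and 2.53% for IgG. Leaving out one pool moved the PAX6 ratio between 0.66, without pool 3, and 1.7, without pool 1. Within 50 kb the ratio was 2.6 for PAX6 (3 peaks, 1.15 expected) and 1.93 for IgG (1 peak, 0.518 expected). The share of loci within 50 kb was 16.7% for PAX6 and 8.33% for IgG, without a share of other miRNA loci. With peaks of score 70 or more the ratio was 1.92 for PAX6 and 6.18 for IgG. This limit keeps unlike parts of the lists, whose median scores were 62.05 in pool 1, 68.98 in pool 2, 105.615 in pool 3 and 65.61 in IgG. The ratios at this limit can thus not be set against each other. Counting the overlapping peaks of pools 2 and 3 once, chosen after seeing the data, gave 0.886, and a share of 50% with a CA or TG repeat. The remaining settings gave values inside the counting interval of the value reported, and longer or shorter limits on the repeat left its share at 66.7%. With 3 PAX6 and 2 IgG peaks near members, the ratios are uncertain over the whole of the intervals given, and read depth is unknown.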
